A study of Mus musculus with 3 samples.

Results

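The genes described here encode the nuclear subunits of the 5 complexes of oxidative phosphorylation. They were chosen by symbol: every gene whose symbol began with Ndufa, Ndufb, Ndufc, Ndufs or Ndufv plus a number, with Uqcr, with Cox4 to Cox8 or with Atp5, and Sdha to Sdhd, on a probe set assigned to 1 gene. Assembly factors named Ndufaf were left out, and each gene was represented by its brightest probe set. This gave 81 of the 18193 genes so named on the array, with 33 in complex I, 4 in complex II, 8 in complex III, 19 in complex IV and 17 in complex V. Ndufa4 and Ndufa4l2 were placed in complex IV, where the Ndufa4 protein is now assigned despite its complex I name, and Cox7a2l, which joins complexes III and IV into supercomplexes, was kept there too. All 81 genes matched the RefSeq gene table, with 0 symbols changed, and lay on 19 chromosomes, Ndufa1 and Ndufb11 on the X.

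The study measured mouse bone marrow-derived dendritic cells, which are antigen-presenting cells grown from marrow, on 1 Affymetrix array for each of 3 conditions. All cells were grown for 10 days in GM-CSF at 10 ng/ml, a culture that can also hold granulocytes and macrophages. The first array held cells that received no agent. The other arrays held cells stimulated for 3 h, either with lipopolysaccharide (LPS), the bacterial ligand of Toll-like receptor 4, from E. coli at 10 ng/ml, or with the same LPS plus 8-Br-cAMP, a cell-permeable analog of cyclic AMP, at 100 µM. There was no array of cells given 8-Br-cAMP without LPS, and the sources used here do not give strain, sex, age or the number of animals. With 1 array per condition no difference could be tested, and a difference between arrays cannot be told apart from a difference between cultures.

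Oxidative phosphorylation passes electrons from NADH through complex I, and from succinate through complex II, to ubiquinone, then through complex III and cytochrome c to complex IV, which reduces oxygen. Complexes I, III and IV pump protons across the inner mitochondrial membrane, and complex V, the ATP synthase, makes ATP as the protons return. All complexes but complex II also contain subunits encoded by mitochondrial DNA, while the genes described here are nuclear and many of their promoters are known to hold sites for NRF1, the ETS factor GABP and YY1. Dendritic cells and macrophages given LPS are known to turn toward glycolysis, and cyclic AMP acts on transcription in part through CREB, which binds the cAMP response element.

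Promoters were examined for these sites because the same genes are compared across LPS and a cyclic AMP analog. RefSeq promoter sequences of build GRCm38.p6, each 300 bases long with 250 before and 50 after the start of the gene, were held for 66 of the 81 genes, which had 71 promoters. Motifs were searched as exact letters on both strands. The NRF1 core of 10 letters, which reads the same on both strands, was in 4 of the 71 promoters (5.63%) and in 0.971% of all 32851 promoters, and its inner part GCATGC, which the longer core also contains, was in 12 (16.9%) and in 7.93%. The ETS core CCGGAAG was in 17 (23.9%) against 8.86%, and the YY1 core AAGATGGC in 9 (12.7%) against 2.75%. The cAMP response element TGACGTCA was in 3 (4.23%) against 1.79%, and TGACG, which the full element also contains, in 27 (38.0%) against 20.8%. A match is a description of the letters and was not shown to be a bound site.

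The 3 promoters with the full cAMP response element belonged to Ndufa10 and Ndufb2, both accessory subunits of complex I, and to Uqcrfs1, the Rieske iron-sulfur protein of complex III. They are shown 5′ to 3′ on the strand of the gene, with the element in capitals, because this is the element closest to the added agent. The element ended 59 bases before the start of Ndufa10, 6 before that of Ndufb2 and 21 before that of Uqcrfs1.
Ndufa10, chr1:92473806-92473837 (-): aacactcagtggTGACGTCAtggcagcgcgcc
Ndufb2, chr6:39592539-39592564 (+): agtgcgacgcagTGACGTCAcgggcc
Uqcrfs1, chr13:30545326-30545357 (-): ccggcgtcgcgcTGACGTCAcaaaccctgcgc

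The NRF1 core, in capitals, is shown for Atp5g2, which encodes the c subunit of the ATP synthase ring, for Atp5k, its subunit e, and for Cox6a1, the widely expressed form of a nuclear subunit of complex IV.
Atp5g2, chr15:102671068-102671101 (-): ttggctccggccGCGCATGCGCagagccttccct
Atp5k, chr5:108434428-108434461 (-): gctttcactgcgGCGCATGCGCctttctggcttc
Cox6a1, chr5:115349099-115349132 (-): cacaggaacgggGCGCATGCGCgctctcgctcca

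The ETS core, the most frequent of the longer motifs, is shown from complexes II, III and IV for Sdhd, a membrane anchor of succinate dehydrogenase, Uqcrh, the hinge protein of complex III, and Cox6b1, a complex IV subunit. In these it lay on the opposite strand, so the capitals mark its reverse complement, CTTCCGG.
Sdhd, chr9:50603877-50603907 (-): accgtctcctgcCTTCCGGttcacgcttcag
Uqcrh, chr4:116075071-116075092 (-): gagtatgccgcaCTTCCGGcca
Cox6b1, chr7:30626124-30626154 (-): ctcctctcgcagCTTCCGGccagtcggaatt

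Signals were deposited as linear intensities and were brought to a common array scale. They are given below as scaled signals in the order unstimulated, LPS, LPS+8-Br-cAMP. Signals under a floor of 32.5, the highest of the 3 array medians, were set to it. Only a gene under the floor on both arrays of a comparison was left out of it as not measured. Of the 81 genes 77 were above the floor on all 3 arrays. Cox4i2 was above it on the LPS+8-Br-cAMP array only, and Ndufb4, Cox7b2 and Cox8b were under it on all 3. Cox8b encodes a form known from heart and skeletal muscle and Cox7b2 one known from testis. For Ndufb4 the dim value belongs to its single-gene probe set, while a probe set shared with 2 Ndufb4-like genes read 1039, 782 and 708. The median scaled signal over the members was 815, 645 and 629 in complex I, 1164, 730.0 and 946 in complex II, 916, 654 and 1134 in complex III, 474, 316 and 339 in complex IV and 1973, 1645 and 1948 in complex V. The LPS array had the lowest of the 3 medians except in complex I. Probe sets differ in affinity, so signals of different genes or complexes are not amounts of transcript.

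**Figure D1:**
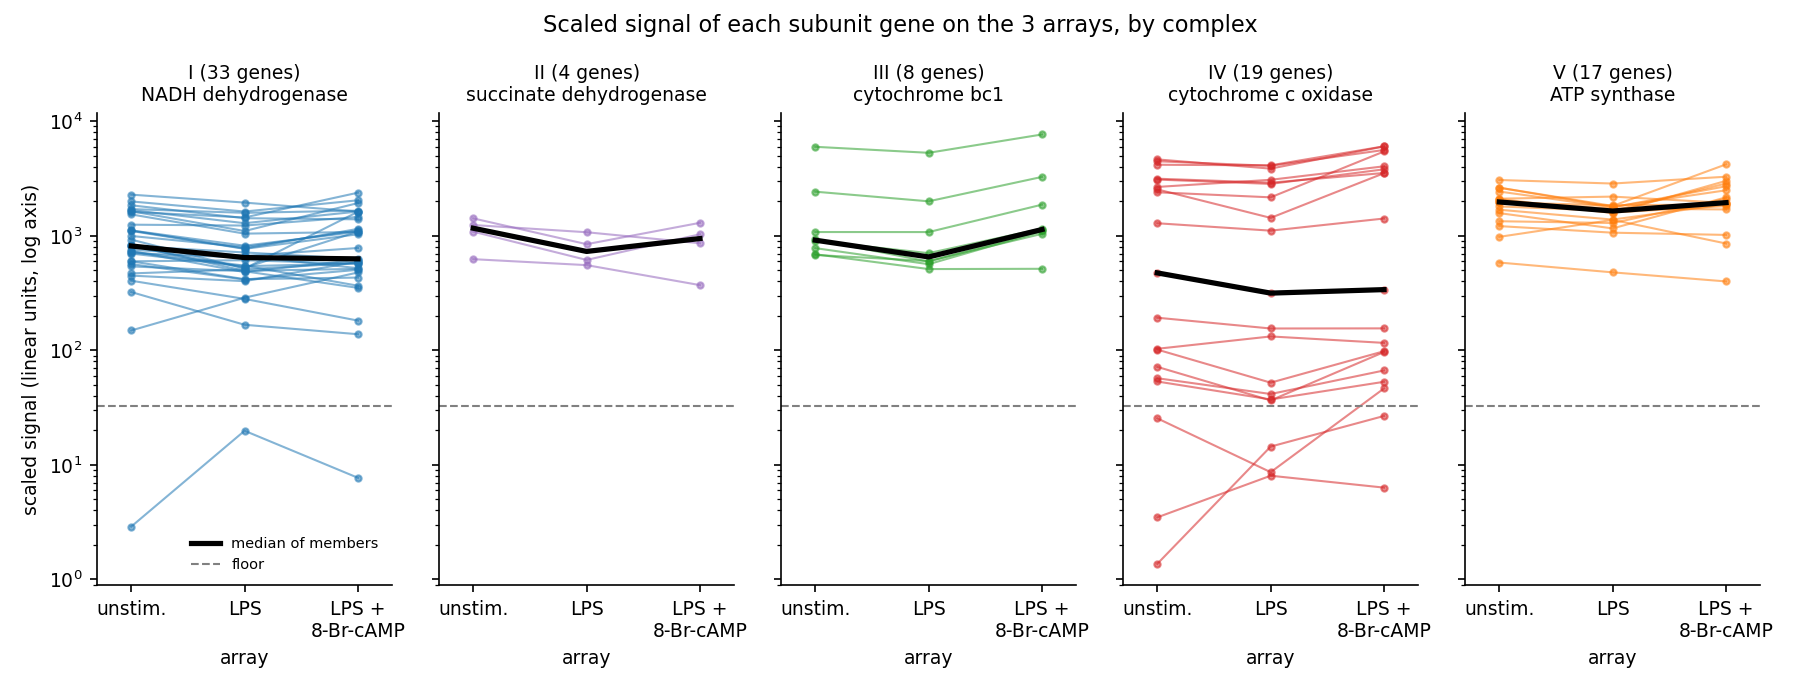
Scaled signal (linear units, log axis) of each of the 81 subunit genes on the 3 arrays, 1 panel per complex, with each line 1 gene, the black line the median of the panel and the dashed line the floor of 32.5. In complex III the 8 lines are lowest on the LPS array and 7 end above their unstimulated value, while complex IV splits into bright genes from 1109 with LPS upward and dim ones, many of them tissue isoforms.

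The arrays differed in ways that touch every result below. Trimmed means of the deposited signals were 135, 111 and 63.2, which gave scale factors of 0.763, 0.929 and 1.63, so the direction of a small difference against the LPS+8-Br-cAMP array rests on the scaling. Of the 14 dendritic cell markers matched, all were above the floor on every array, among them Itgax and Cd74, and so were the 9 macrophage markers. The dendritic cell markers summed to 33547, 41211 and 53471, with 4 of the 14 lower on the LPS+8-Br-cAMP array than on the LPS array. The macrophage markers summed to 37709, 45861 and 56554, with 5 of the 9 lower between the same arrays. The 13 granulocyte markers, at least 12 of them above the floor on each array, summed to 43162, 45265 and 23992, and all 13 were lower on the LPS+8-Br-cAMP array than on the LPS array, 7 of them at least 2-fold. The 9 B and plasma cell markers, of which 8, 8 and 6 were above the floor, summed to 5172, 3168 and 375, with 6 of the 9 lower on the LPS+8-Br-cAMP array than on the LPS array, and the 6 eosinophil, basophil and mast cell markers to 1712, 1707 and 591. Xist, transcribed from the inactive X of females, read 32.3, 8.08 and 1716, and the Y-linked Eif2s3y read 352, 272 and 1.24. The Y-linked Uty read 66.0, 78.2 and 3.64, and Kdm5d read 76.2, 50.3 and 20.9. These are readings of female cells on the LPS+8-Br-cAMP array and of male cells on the other arrays, so agent and sex differ together. The ratio of the 3′ to the 5′ probe set, a sign of RNA and labelling quality, was 0.771, 0.785 and 0.856 for Gapdh and 1.51, 1.36 and 1.14 for Actb. The part of these differences in the results was not tested, and in bulk RNA fewer cells of a type and less RNA per cell cannot be told apart.

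The comparison of the LPS array with the unstimulated array bears on LPS given for 3 h without 8-Br-cAMP. These arrays also differed in some cell type markers. All 8 B and plasma cell markers measured were lower with LPS, with a median of -0.77, while 8 of 13 granulocyte markers were lower, with a median of -0.0057. LPS thus cannot be told apart from the make-up of the culture. Most subunit genes read lower with LPS, by small amounts, in every complex. Of 77 genes measured, 70 were lower and 7 higher, where 61.8% of the 12283 genes measured on these arrays were lower and 38.2% higher. The median log2 difference was -0.29, with the middle 50% of the genes from -0.52 to -0.14, beside -0.21 over all genes. None passed 2-fold, against 6.64% of all genes higher and 13.0% lower, and at 1.5-fold 12 were lower and 1 higher, against 28.6% and 13.9%. Most subunit genes were thus lower, few of them by 1.5-fold. As a measure of scatter, the log2 differences of the brightest and second brightest probe sets of 1 gene differed with an SD that, divided by the square root of 2, was 0.49 over 5320 genes and 0.28 over the 43 members with a measured pair. This error of 1 probe set does not include the spread between cultures. All genes were not matched to the members for brightness, and the members' median signals were 1086, 797 and 1092. All genes also had the larger error of 1 probe set, so shares past a fold threshold, here and below, are not a like comparison.

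**Figure D2:**
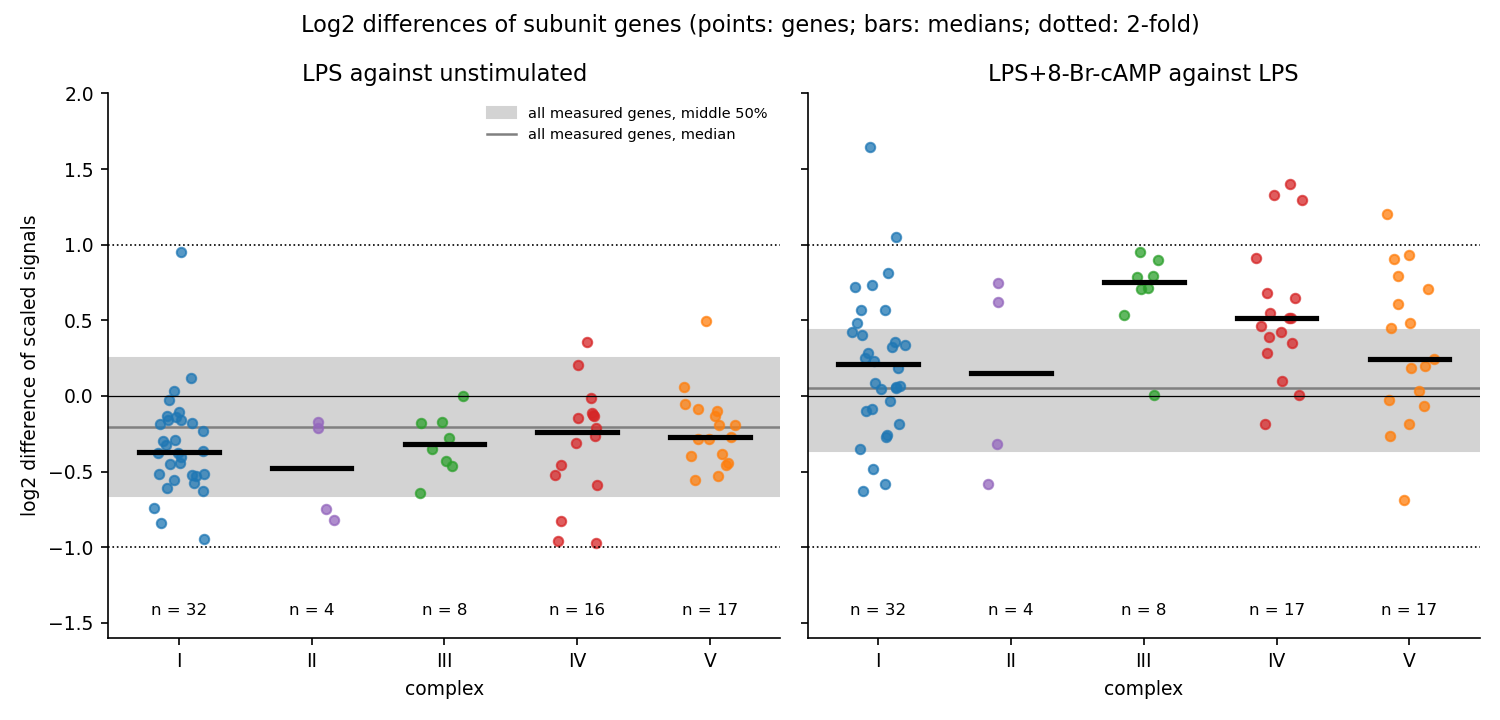
Log2 difference of scaled signals of each measured subunit gene by complex, for LPS against unstimulated (left) and LPS+8-Br-cAMP against LPS (right), with black bars at the medians, dotted lines at 2-fold and the grey band the middle 50% of all measured genes. On the left all 4 genes of complex II and all 8 of complex III lie at or below 0, and on the right 7 of the 8 genes of complex III lie above the grey band.

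In complex I 29 of 32 measured genes were lower with LPS and the median was -0.37. The 6 catalytic core subunits measured had a median of -0.56 and the 26 other subunits -0.30. Ndufs1, the largest iron-sulfur subunit of the NADH-oxidising arm, read 323, 167 and 138, 1.93-fold lower with LPS and the lowest difference of the complex at -0.95. Ndufs8, an iron-sulfur subunit near the quinone site, read 927, 518 and 1621, a difference of -0.84, and its 6 probe sets were all lower with LPS. The other core genes were lower by less. Ndufv1, which binds FMN and oxidises NADH, differed by -0.52, its iron-sulfur partner Ndufv2 by -0.44, Ndufs7 by -0.61 and Ndufs3 by -0.37. Among accessory subunits Ndufa8 differed by -0.74 and Ndufa10 by -0.63. Ndufb1, an accessory subunit of the membrane arm, went the other way at 149, 288 and 479, 1.93-fold higher with LPS, from a single probe set. Ndufs4, an accessory subunit whose loss causes Leigh syndrome, read 469, 509 and 579.9, a difference of 0.12, and Ndufb6 read 599, 612 and 571, a difference of 0.032 on its brightest probe set and -0.11 on its second.

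Complex II, which is also the succinate dehydrogenase of the citric acid cycle, was lower with LPS in all 4 genes, with a median of -0.48. Sdhd read 1086, 615 and 1031, a difference of -0.82, and Sdhb, the iron-sulfur subunit, read 1419, 845 and 1298, a difference of -0.75. These 2 genes were at least 1.5-fold lower. The flavoprotein Sdha read 1242, 1074 and 861 and differed by -0.21, or -0.76 on its second probe set. The other membrane anchor, Sdhc, read 625, 554 and 371 and differed by -0.17, or -1.03 on its second probe set.

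In complex III all 8 genes were lower, with a median of -0.32. The lowest was Uqcr10, a small subunit, at 929, 596 and 1113 and a difference of -0.64, with -1.40 and -1.47 on its other probe sets. Uqcrfs1 read 1079, 1078 and 1869.7, with equal unstimulated and LPS signals on its only probe set (a difference of -0.0013). The core proteins Uqcrc1 and Uqcrc2 differed by -0.18 and -0.47, and the second probe set of Uqcrc2 by 0.20. Uqcrq, a ubiquinone-binding small subunit, differed by -0.35, and its dim second probe set by 0.50.

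Complex IV had 14 of 16 measured genes lower with LPS and a median of -0.24. Without tissue isoforms its 11 genes had a median of -0.15. Cox7a2l read 2542, 1433 and 3519.9, a difference of -0.83, and its other probe sets gave -0.74 and -0.76. Ndufa4 read 474, 316 and 339, a difference of -0.59. The bright genes of the complex differed by less, with Cox6a1 at -0.016, Cox6c at -0.12, Cox7a2 at -0.13, Cox6b1 at -0.13 and Cox4i1 at -0.27. Cox5a, an early-assembling subunit, read 2669.7, 3082 and 4042 and was higher by 0.21, but its second probe set gave -0.031. The second probe set of Cox7a2 gave 0.0026.

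In complex V 15 of 17 genes were lower, with a median of -0.27, and none reached 1.5-fold. The lowest was Atp5g2 at 2629.7, 1790.1 and 2496, a difference of -0.55, followed by Atp5c1, the rotating gamma shaft, at 2631, 1822 and 4203 and -0.53. Atp5a1 (alpha) and Atp5b (beta), which form the catalytic ring, differed by -0.086 and 0.060. Atp5md, a small membrane subunit that helps ATP synthase dimers to form, read 979, 1377 and 856 and was 1.41-fold higher with LPS on its single probe set.

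Setting the LPS+8-Br-cAMP array against the LPS array bears on what the cyclic AMP analog adds. These arrays also differed in sex-linked and cell type markers, so the agent cannot be told apart from the sex and make-up of the culture. The LPS array enters both comparisons, so a low reading there lowers the first difference and raises this one, and they are not independent. Of 78 genes measured, 60 were higher with 8-Br-cAMP and 18 lower, where 53.2% of 12572 genes were higher and 46.8% lower. The median log2 difference was 0.38, with the middle 50% from 0.013 to 0.71, beside 0.049 over all genes. At 2-fold 6 genes were higher and 0 lower, against 6.49% and 5.81% of all genes, and at 1.5-fold 25 were higher and 2 lower, against 18.1% and 15.8%. The medians were 0.75 in complex III, 0.51 in complex IV, 0.24 in complex V, 0.21 in complex I and 0.15 in complex II. The error of 1 probe set was 0.53 over 5285 genes and 0.41 over 44 members.

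Complex III was higher with 8-Br-cAMP in all 8 genes by their brightest probe sets, 6 of them by at least 1.5-fold and none by 2-fold. Uqcrc2 read 780.4, 565 and 1092, 1.93-fold higher than with LPS alone. Uqcr10 differed by 0.90, and by 1.21 and 0.50 on its other probe sets. Uqcrfs1, with a cAMP response element in its promoter as shown above, was 1.74-fold higher, and Uqcrc1, at 680.1, 602 and 1041, 1.73-fold. Uqcrh, at 2427, 1999.7 and 3266, was 1.63-fold higher and 0.30 log2 units higher on its second probe set. In these genes the LPS array was the lowest or equal lowest and the LPS+8-Br-cAMP array the highest. Uqcr11, at 689.5, 512 and 515, did not follow, with a difference of 0.0079. The second probe sets of 3 genes went the other way. That of Uqcrb, a bright ubiquinone-binding subunit at 5982, 5301 and 7665, read 829, 676 and 271, a difference of -1.32 against 0.53. That of Uqcrc2 read 497, 573 and 395, a difference of -0.53, and that of Uqcrq, near the floor at 38.5, 54.4 and 40.7, gave -0.42 against 0.71 for its brightest probe set at 902, 706 and 1156. With second brightest probe sets the median of the complex was -0.42, so its direction rests on the probe sets used.

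In complex IV 16 of 17 measured genes were higher with 8-Br-cAMP, 3 of them by at least 2-fold. Cox5b, a zinc-binding subunit, read 2398, 2166 and 5446 and was 2.51-fold higher than with LPS alone, and its 5 measured probe sets were all higher, by 0.21 to 1.33. The lowest of these values came from the only one of the 5 whose name marks it as unique to the gene. Cox7a2l was 2.46-fold higher, with 1.09 and 1.15 on its other probe sets. Cox8c, a form known from testis, was the other, at 71.7, 36.6 and 96.7, close to the floor with LPS, and its second probe set read 5.93, 44.2 and 63.5, which was higher by 0.52. Of the bright genes Cox4i1 read 4642, 3858 and 6031, 1.56-fold higher. Cox6a1 read 4169, 4122 and 6041, 1.47-fold higher, and Cox6b1 read 4475, 4082 and 5614, 1.38-fold higher, or 0.98 log2 units on its second probe set. Each of these was highest on the LPS+8-Br-cAMP array. Cox7a2 read 3096, 2838 and 3805 and Cox8a 1286, 1109 and 1415, differences of 0.42 and 0.35. Cox6c read 3150.2, 2908 and 3534, a difference of 0.28, while its second probe set gave -0.49. Ndufa4 differed by 0.10, within the error of 1 probe set.

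Several complex IV subunits exist as a widely expressed form and a tissue form, and the tissue forms were dim here. Cox4i2, the lung form induced in low oxygen, read 25.5, 8.64 and 46.5 beside 4642, 3858 and 6031 for Cox4i1, and was at least 1.43-fold higher with 8-Br-cAMP than with LPS, a bound set by the floor. Cox6a2, known from heart and muscle, read 102, 52.2 and 98.3, lower with LPS by 0.96 and higher with 8-Br-cAMP by 0.91 on the log2 scale. Cox7a1, also known from heart and muscle, read 57.1, 41.6 and 66.7. Cox6b2, known from testis, read 103, 132 and 116 and was the only complex IV gene lower with 8-Br-cAMP, at -0.19. Ndufa4l2, induced by HIF1 in low oxygen, read 193, 155 and 155 and was the same on both stimulated arrays to within 0.0034. Cox7c was also dim, at 53.5, 37.2 and 53.1, on its brightest single-gene probe set. Without the tissue isoforms all 11 genes of the complex were higher with 8-Br-cAMP, with a median of 0.46.

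In complex I 22 of 32 genes were higher with 8-Br-cAMP and 10 lower, with differences from -0.63 to 1.65. Ndufs8 was 3.13-fold higher, the largest difference among the 78 genes, and its 6 probe sets were higher by 0.59 to 1.85. Ndufa10, whose promoter is also shown above, read 814, 526 and 1088 and was 2.07-fold higher, with a second probe set near the floor at 29.5, 5.78 and 37.1. Ndufb2, the other gene with the element, read 449, 402 and 594, 1.48-fold higher, and its second probe set differed by 0.40. Ndufb11 and Ndufa7, both accessory subunits, were 1.75-fold and 1.65-fold higher, and the 3 probe sets of Ndufb11 and 5 of Ndufa7 were all higher. Ndufb1 was higher again, 1.66-fold above the LPS array. Other genes were lower with 8-Br-cAMP. Ndufa5, an accessory subunit of the peripheral arm, read 405, 281 and 182, a difference of -0.63, and its second probe set, at 327, 279 and 204, differed by -0.46. Ndufs5, an accessory subunit on the intermembrane side, read 728, 549 and 366, a difference of -0.58, and a probe set it shares with a pseudogene differed by -0.61. Ndufb3 differed by -0.48 and Ndufa9 by -0.35. All 4 of these genes were highest in unstimulated cells and lowest with LPS+8-Br-cAMP.

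The core subunits of complex I did not differ as a block. Next to Ndufs8, Ndufv2 read 1113, 819 and 1085 and was higher by 0.41, with 0.63 and 0.96 on its other probe sets. Ndufs7 read 736, 482 and 619 and was higher by 0.36. Ndufv1 read 599, 418 and 432 and Ndufs3 699, 542 and 575, with differences of 0.046 and 0.084, while Ndufs1 was lower by 0.27. Of the core genes Ndufs8 alone differed by more than the error of 1 probe set over all genes, 0.53. Their median was 0.22 and that of the 26 other subunits 0.21. Outside the rule, because their probe sets are assigned to several genes, the probe set of Ndufa11 and Ndufa11b read 569.8, 383 and 806, and that of Ndufs6 and Ndufs6b 498, 417 and 351.

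In complex V 12 of 17 genes were higher with 8-Br-cAMP and 5 lower. Of the 5 subunits of the F1 head, which makes ATP, 3 were at least 1.5-fold higher with 8-Br-cAMP, and the median was 0.90. These were the central shaft genes, with Atp5c1 2.31-fold higher, Atp5d (delta) at 2057, 1579 and 3018 and 1.91-fold higher, and Atp5e (epsilon) at 1577, 1159.6 and 2167 and 1.87-fold higher. The catalytic ring was close to its LPS signal, with Atp5a1 at 1957, 1844 and 1883 and Atp5b at 2108, 2198 and 1937, differences of 0.030 and -0.18. The second probe set of Atp5d was higher by 1.08, but that of Atp5c1, far dimmer at 146, 94.4 and 65.7, was lower by 0.52. By their names, the brightest probe sets of the 3 shaft genes can also bind related transcripts. Those of Atp5a1 and Atp5b, and the second one of Atp5c1, are unique to the gene. Shaft and ring thus also differ in the type of probe set, and its part was not tested. The 3 genes of the c subunit, which encode the same mature protein, differed from each other, with Atp5g1 at 584, 479 and 399.6, Atp5g2 at 2629.7, 1790.1 and 2496 and Atp5g3 at 3069.6, 2858 and 3278. Their differences were -0.26, 0.48 and 0.20, each within the 0.53 measured as the error of 1 probe set over all genes.

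Of the stalk that holds the head still, Atp5o, the OSCP subunit, read 1340.1, 1293 and 2106 and was 1.63-fold higher, and Atp5h (subunit d) read 2434, 1772 and 2707 and was 1.53-fold higher. The equally bright second probe set of Atp5h read 2429, 2127 and 1842 and was lower by 0.21 on the log2 scale. Atp5j (F6) and Atp5pb (subunit b) differed by -0.065 and -0.027, and the second probe set of Atp5pb by 0.50. Among small membrane subunits Atp5mpl read 1805, 1647 and 2859.6 and was 1.74-fold higher, and Atp5md, the gene that was higher with LPS, was 1.61-fold lower.

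In complex II the genes divided evenly. Sdhb and Sdhd, the lowest with LPS, were 1.54-fold and 1.68-fold higher with 8-Br-cAMP, while Sdha and Sdhc differed by -0.32 and -0.58. The second probe set of Sdhd differed by 0.083 and that of Sdhc by 0.36, opposite in sign to its brightest. Neither subcomplex, the catalytic pair Sdha and Sdhb or the anchor pair Sdhc and Sdhd, had both genes on the same side.

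Probe sets of the same gene bear on how far these values can be read. For LPS against unstimulated 37 of 43 members had both of their brightest probe sets on the same side of 0, and 33 of the 43 had every measured probe set lower. For LPS+8-Br-cAMP against LPS 30 of 44 had both on the same side, and of 36 members higher on the brightest probe set 26 were higher on the second. With every measured probe set counted, 23 of the 44 had all of them higher, 4 all lower and 17 were mixed. Over those 44 the median was 0.45 on the brightest and 0.18 on the second brightest probe sets. The members opposite in sign and not described above were Ndufb5, Ndufb7, Ndufc1, Ndufc2, Ndufv1 and Atp5g2. Ndufb5, for example, read 1102, 769 and 1031 on its brightest and 609.7, 433 and 374 on its second probe set, and Ndufc1 read 706, 645 and 608 and 525, 364 and 475. Many of these genes have processed pseudogenes, which such probe sets may also detect where they are transcribed. Members whose brightest probe set was unique by name (40 measured) had a median of 0.22, and those on probe sets that can also bind related transcripts or variants (38) had 0.47.

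**Figure D3:**
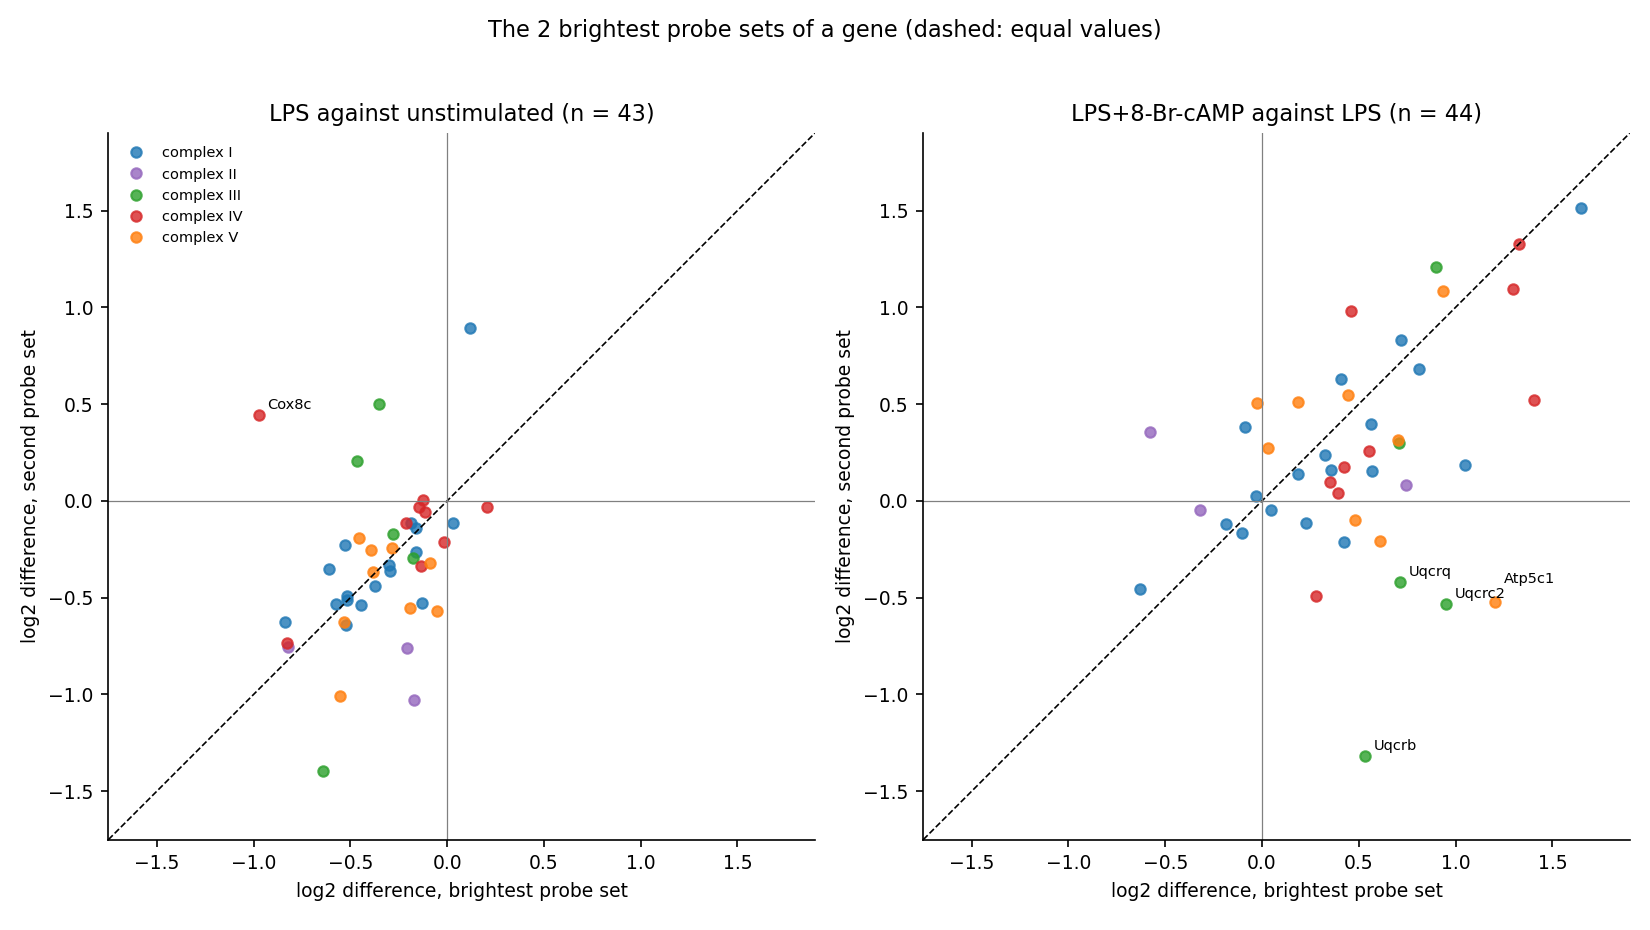
Log2 difference on the brightest (x axis) against the second brightest (y axis) probe set of each subunit gene with both measured, coloured by complex, with the dashed line at equal values. For LPS against unstimulated most of the 43 genes lie in the lower left, and for LPS+8-Br-cAMP against LPS several of the 44 lie at the lower right, where the second probe set goes the other way, Uqcrb, Uqcrc2, Uqcrq and Atp5c1 farthest.

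Returning to the promoters, the 3 genes with the full cAMP response element were all higher with 8-Br-cAMP and had a median of 0.79, against 0.33 for the 60 measured genes whose promoters lacked it, of which 44 were higher. For TGACG the medians were 0.38 over 24 genes with it and 0.34 over 39 without. Genes with the ETS core had a median of 0.45 over 17, against 0.33 over 46 without it. For the NRF1 core the medians were 0.52 over 4 with it and 0.33 over 59 without, and for the YY1 core 0.19 over 9 and 0.41 over 54. Ndufs8 and Cox5b, higher by more than 2-fold, lacked the full element in the window searched, though Cox5b held TGACG, which says nothing about the factor itself. For LPS against unstimulated the medians were -0.16 with the full element and -0.30 without.

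Against unstimulated cells the array with LPS and 8-Br-cAMP was close to level. Of 78 genes 39 were higher and 39 lower, where 43.8% of 12793 genes were higher and 56.2% lower, and the median was 0.012 beside -0.12. This comparison shares both arrays with the others and follows from them. At 2-fold 2 genes were higher and 2 lower, against 9.36% and 15.8% of all genes. Ndufb1 was 3.21-fold higher and Cox5b 2.27-fold higher, while Ndufs1 was 2.33-fold lower and Ndufa5 2.23-fold lower. Ndufs5 was close to that at 1.99-fold lower. The complexes stood on different sides, with medians of 0.39 in complex III and 0.30 in complex IV, near 0 in complex V (-0.029) and complex I (-0.084), and -0.33 in complex II. In complex III 7 of 8 genes were above their unstimulated signal, and in complex II 0 of 4. Within the complexes Uqcrfs1 was highest in complex III at 0.79 and Uqcr11 lowest at -0.42, Ndufa4 was lowest in complex IV at -0.48, and in complex V Atp5c1 stood at 0.68 and Atp5g1 at -0.55. The error of 1 probe set was 0.62 over 5472 genes.

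Because the deposited arrays differed in scale, the median of each complex was also set against that of all measured genes under 12 other choices of scaling, floor, probe set or members. Relative to all genes, the members' median was lower with LPS in all 12, at -0.40 to -0.069, and higher with 8-Br-cAMP than with LPS in all 12, at 0.18 to 0.33. Part of this count was fixed in advance. Median and spike scaling multiply each array by 1 factor, which moves members and all genes nearly alike. With 8-Br-cAMP against LPS they gave 0.32 and 0.33, beside 0.33 in the main setting. Quantile normalization and cyclic loess, which do not use a single factor per array, gave 0.23 and 0.18. Complexes I, II, III and V were below all genes with LPS in all 12, and complex IV in 9 of 12. Complexes I, IV and V were above all genes with 8-Br-cAMP in all 12, and complexes II and III in 11 of 12. Complex IV ranged from 0.24 to 0.47, complex I from 0.048 to 0.19 and complex V from 0.061 to 0.34. The lowest values of complexes I and V were thus close to the median of all genes. For complex III the exception was the second brightest probe set, -0.39, and its range was -0.39 to 0.73. Without any scaling the members' median for LPS+8-Br-cAMP against LPS was -0.46, since that array was deposited with dimmer signals.

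**Figure D4:**
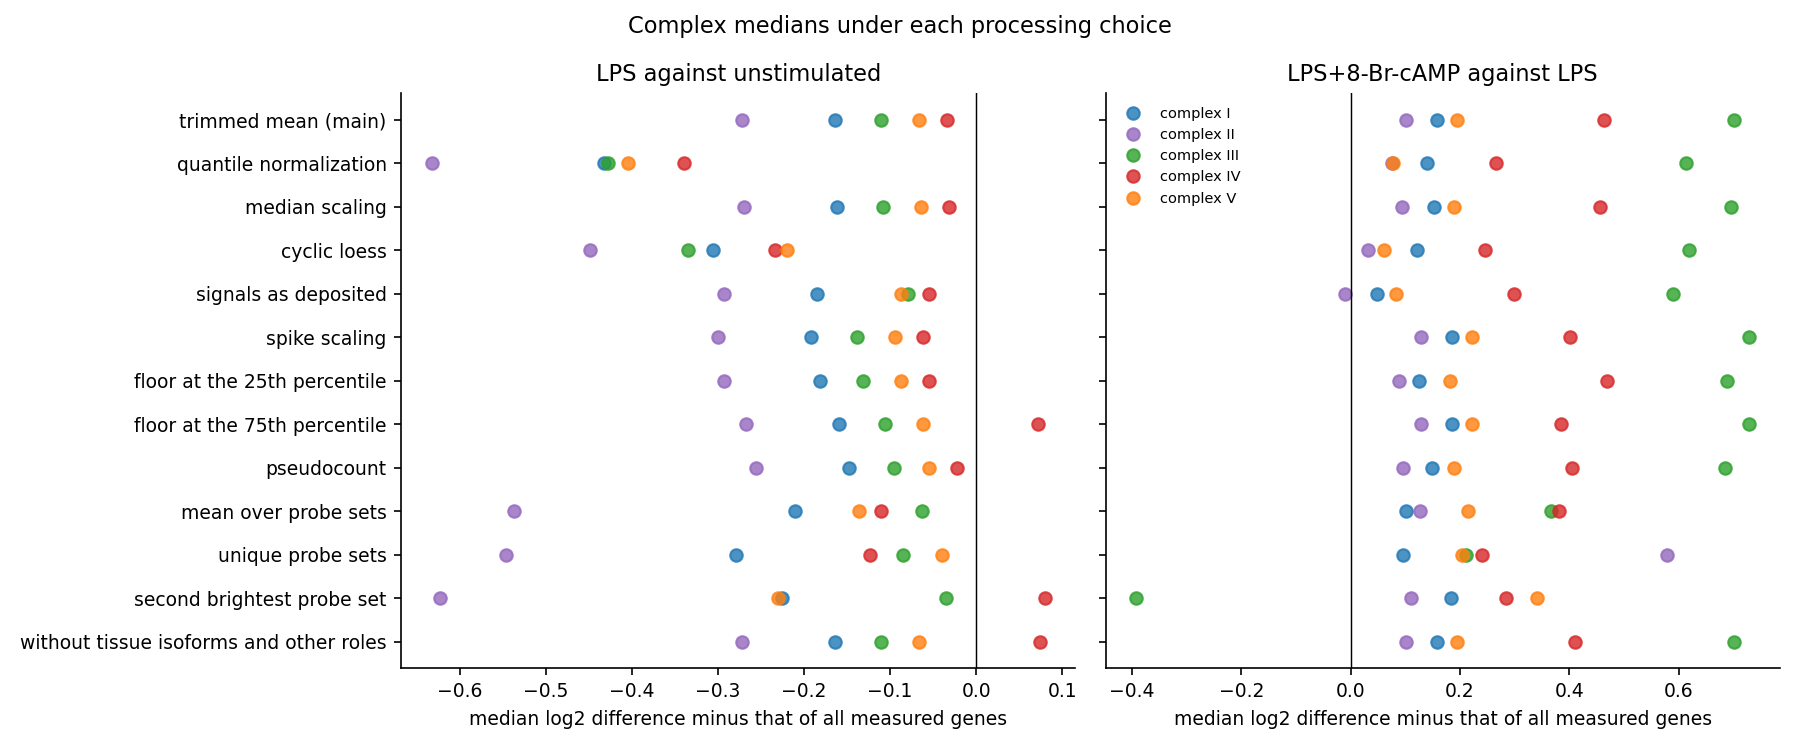
Median log2 difference of each complex minus that of all measured genes (x axis) under the main and 12 other processing choices (rows), for LPS against unstimulated (left) and LPS+8-Br-cAMP against LPS (right). On the right complex III stands farthest right in most rows and far left, at -0.39, with the second brightest probe sets, while complex IV stays between 0.24 and 0.47.

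Other genes of mitochondrial respiration, from lists taken by name, give the surroundings. The 47 measured assembly factors, which build the complexes without staying in them, had a median of -0.53 with LPS, 37 of them lower and 9 at least 2-fold lower, against 61.8% and 13.0% of all genes. Sco2, which delivers copper to complex IV, read 130.0, 37.1 and 40.2, Sdhaf3, which serves the iron-sulfur subunit of complex II, 129, 47.2 and 17.3, and Tmem126b, a complex I factor, 129, 8.05 and 3.99, at least 3.97-fold lower with LPS. Cox17, the copper chaperone of complex IV, and Lyrm7, which serves the Rieske protein, were the 2 that were at least 2-fold higher, at 578, 1418 and 1528 and 25.3, 66.6 and 19.5, and are named after their values were seen. With 8-Br-cAMP against LPS the factors' median was 0.11, with Sdhaf2 at 462, 302 and 1278, Sco1 at 30.0, 37.9 and 94.8 and Ttc19 at 30.5, 42.9 and 92.1, the farthest above LPS of the 46 measured. The second probe set of Sdhaf2 gave 0.94, while that of Ttc19, at 54.5, 52.1 and 39.4, went the other way and gave -0.40. The 19 regulators measured had medians of -0.51 and 0.24. Of the GABP partners Gabpb1 read 68.0, 220.2 and 262 and Gabpb2 147, 39.4 and 87.8, a difference of -1.90 with LPS where the second probe set of Gabpb2 gave 0.61. The coactivator Ppargc1b read 114, 10.8 and 9.65, at least 3.51-fold lower with LPS, Pprc1 92.4, 142 and 59.3 and the corepressor Nrip1 263, 138 and 307.

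The genes of mitochondrial ribosomal proteins, also nuclear, were lower with LPS in 67 of 76, with a median of -0.57 and 14 at least 2-fold lower, against 61.8% and 13.0% of all genes. They were higher with 8-Br-cAMP than with LPS in 59 of 76, against 53.2% of all genes, with a median of 0.23. The 45 measured cytosolic ribosomal protein genes had a median of 0.010 with LPS and 0.52 with 8-Br-cAMP against LPS, where 42 were higher. The 14 proteasome subunit genes had medians of 0.063 and 0.37. A median above that of all genes with 8-Br-cAMP was thus also measured in lists outside mitochondria. In a list of citric acid cycle and related genes 20 were measured, with medians of -0.49 and 0.14. With LPS 15 were lower and 5 higher, against 61.8% and 38.2% of all genes. The 5 higher were Dld by 0.73, Pdk3 by 0.51, Dlst by 0.34, Cs by 0.29 and Pdhx by 0.068. The 3 that were at least 2-fold lower with LPS, against 13.0% of all genes, were Fh1, Idh1 and Aco1. Fh1, the fumarase, read 433, 189 and 207. Idh1 read 3233, 807 and 651 and Aco1 402, 193 and 183, and both encode cytosolic enzymes. Idh3a, Idh3b and Idh3g, the subunits of the NAD-dependent isocitrate dehydrogenase of the cycle, are named after their values were seen. Each was lower with LPS by less than 2-fold, reading 284, 187 and 219.9 for Idh3a, 932, 491 and 524 for Idh3b and 965, 483 and 622 for Idh3g. The only mitochondrially encoded subunit named on a single-gene probe set, ND5 of complex I, read 7999, 9682 and 6114, differences of 0.28 with LPS and -0.66 with 8-Br-cAMP against LPS.

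**Figure D5:**
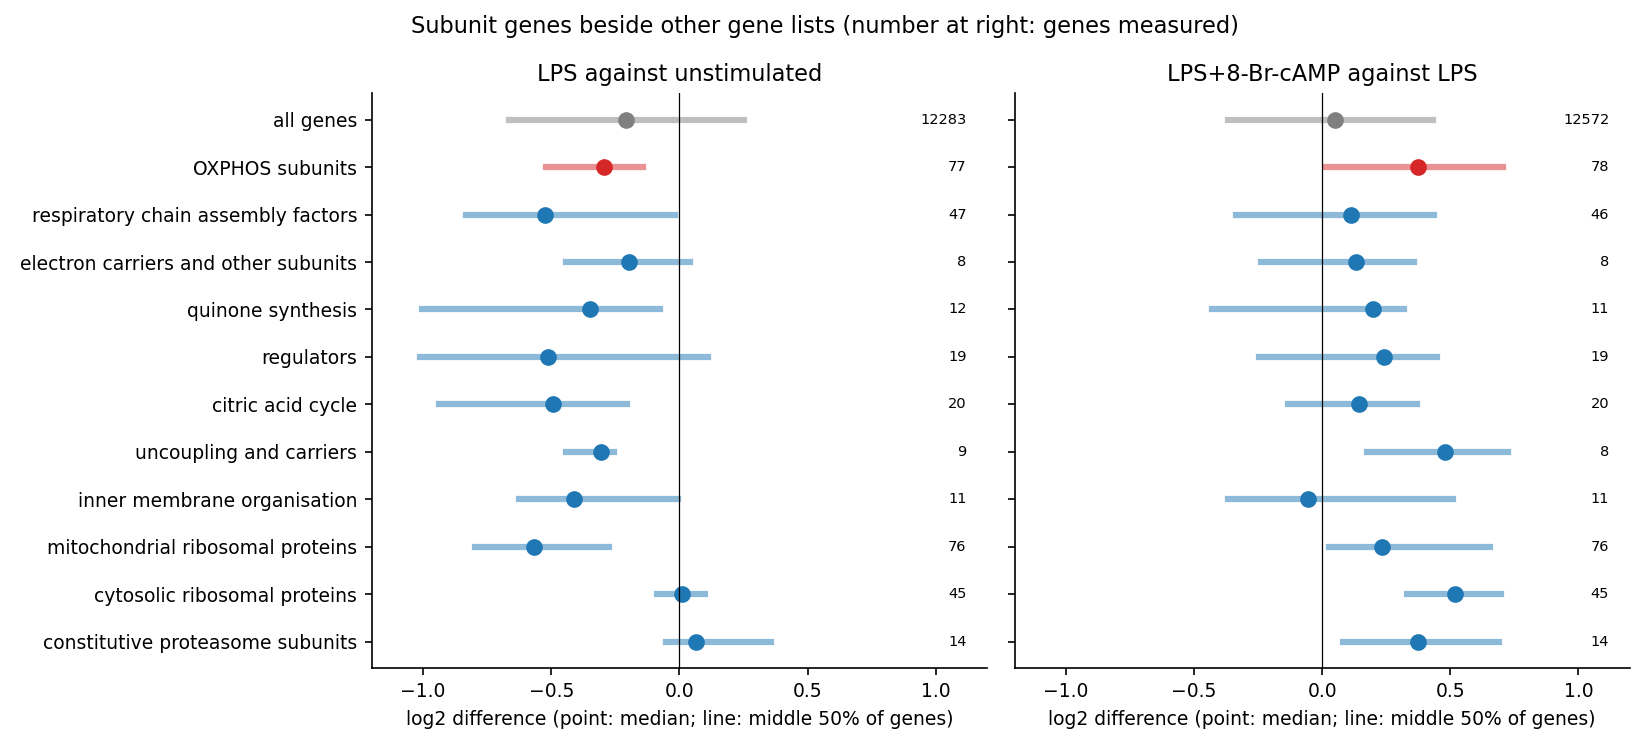
Median log2 difference (point) and middle 50% of the genes (line) for all measured genes, the subunit genes and other gene lists, with the number of genes measured at the right of each panel. With LPS the subunit genes sit at -0.29, nearer to 0 than the mitochondrial ribosomal genes at -0.57, and with 8-Br-cAMP against LPS they sit at 0.38, below the cytosolic ribosomal genes at 0.52.

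A list of 11 genes of nitric oxide, itaconate and succinate handling, which includes Sdha to Sdhd, had a median of -0.17 with LPS, beside -0.21 over all genes. In it 7 were lower (63.6%) and 4 higher, near the 61.8% and 38.2% of all genes. The 3 that were at least 2-fold higher, against 6.64% of all genes, are described here. Acod1, which makes itaconate, an inhibitor of succinate dehydrogenase, read 151, 8925 and 12401, 59.3-fold higher with LPS. Nos2, the inducible source of nitric oxide, which inhibits complex IV, read 3.89, 228 and 350.0, at least 7.01-fold higher. AA467197, a homolog of Ndufa4 also called Nmes1 whose protein can take the place of Ndufa4 in complex IV, read 697, 7022 and 8409.5, 10.1-fold higher. Over the same arrays Ndufa4 differed by -0.59 with LPS, and with 8-Br-cAMP both stayed within 0.26 log2 units of their LPS value. Of the electron carriers, cytochrome c (Cycs), named here after its values were seen, read 1077, 2012 and 1670.4, 1.87-fold higher with LPS, and its 3 measured probe sets were all higher, by 0.90 to 0.98. Cyc1, the heme subunit of complex III outside the symbol rule, read 761, 655 and 869. Etfdh, which passes electrons from fatty acid oxidation to ubiquinone, read 229, 106 and 175, 2.15-fold lower with LPS, and Dmac2l, a coupling factor of the ATP synthase, was under the floor on both stimulated arrays and with LPS at least 2.39-fold lower.

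The remaining lists around the respiratory chain were small. Ubiquinone synthesis genes had medians of -0.35 over 12 genes with LPS and 0.20 over 11 with 8-Br-cAMP against LPS. Coq9 read 213, 73.9 and 64.6, 2.88-fold lower with LPS, and Coq8b 83.6, 35.3 and 42.0, 2.37-fold lower. Coq8a, under the floor with LPS, read 94.4, 17.6 and 121, and Coq10a, under it with 8-Br-cAMP, 89.1, 82.3 and 9.23. Of 9 carriers of the inner and outer membrane measured, Slc25a20, which carries acylcarnitines, read 253, 82.0 and 391, 3.09-fold lower with LPS and 4.76-fold higher with 8-Br-cAMP than with LPS, while its second probe set gave log2 differences of -0.46 and 0.71. Among 11 genes of inner membrane organisation, with medians of -0.41 and -0.054, the protease Oma1 read 179, 76.3 and 55.8, 2.35-fold lower with LPS. Chchd6, a subunit of the cristae-organising MICOS complex, read 78.3, 68.6 and 197, 2.86-fold higher with 8-Br-cAMP, while its second probe set gave -1.12.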

How the data were processed

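Total RNA of 3 cultures was hybridised to 1 Affymetrix array each, per the labels' protocols. The deposited values were linear signal intensities per probe set, which the submitters' processing notes credit to MAS5. The sources used here give neither the MAS5 version nor its target value. Of 45101 probe sets 64 controls were left out, and GEO's platform annotation gave 1 gene for 34945, several for 932 and none listed for 9160. Arrays were brought to the average of their means trimmed by 2% at each end. Signals under a floor of 32.5 (log2 5.02) were set to it, and a gene was measured in a comparison when above it on at least 1 array compared. A difference against an array under the floor is written as at least that size. Differences are log2 differences of scaled signals, and with 1 array a condition there is no test, p-value or standard error. Precision is limited by this number of arrays.

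The members and lists were chosen with earlier results of these data known. By rule, signals per array are given for the extreme members of each complex, those past 2-fold and isoform pairs, and for up to 3 genes past 2-fold in each other list. They are also given for some, not all, of the members whose probe sets differ in sign. Median, quantile, cyclic loess and spike scaling, no scaling, other floors, a pseudocount of 16, other probe sets, fewer members and other thresholds were tried. The steps were tested on simulated data. Python 3.11.15, pandas 2.3.3, numpy 2.4.6, R 4.3.3 and limma 3.58.1 were used.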

Additional observations from a re-analysis of the deposited data

How the results depend on the processing

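No paired analysis was possible because each condition had 1 array and the results come from no test. For LPS against unstimulated the members' median kept its sign under all alternatives tried. For LPS+8-Br-cAMP against LPS it reversed only without scaling, to -0.46. For LPS+8-Br-cAMP against unstimulated, near 0 to begin with, it fell below 0 with quantile normalization (-0.26), cyclic loess (-0.14), no scaling (-1.06), spike scaling (-0.19), a floor at the 75th percentile (-0.029), the mean over probe sets (-0.043), unique probe sets (-0.069), second brightest probe sets (-0.088) and without tissue isoforms (-0.019). Without scaling the medians for LPS+8-Br-cAMP against LPS were -0.60, -0.66, -0.058, -0.35 and -0.57 in complexes I to V, and against unstimulated cells -0.74 in complex III and -0.78 in complex IV. Second brightest probe sets gave complex III -0.42 against LPS and -0.19 against unstimulated cells, unique probe sets -0.17 against unstimulated cells, and quantile normalization gave complex IV -0.019 there. Only 40 members had a second probe set above the floor on all arrays. Atp5c1 reversed to -0.52 against LPS on its unique and second probe sets, and Cox5b to -0.14 against unstimulated cells on its unique probe set. The causes were not tested.

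The number of members at least 2-fold higher with LPS, 0 in the main setting, was 1 with quantile normalization, median scaling, cyclic loess or a floor at the 25th percentile, and 1 at 1.5-fold. The number lower, also 0, was 4 with quantile normalization, 8 without scaling or with spike scaling, 1 with the lower floor or the mean over probe sets, 3 with unique or second brightest probe sets, and 12 at 1.5-fold. With 8-Br-cAMP against LPS the 6 higher became 0 without scaling, 11 with spike scaling, 3 with the mean or unique probe sets, 25 at 1.5-fold and 1 at 3-fold, and the 0 lower became 10 without scaling, 1 with the lower floor, unique or second probe sets, and 2 at 1.5-fold. Against unstimulated cells the 2 higher became 0 without scaling, 9 at 1.5-fold and 1 with quantile, loess or spike scaling, the mean, unique probe sets or 3-fold. There the 2 lower became 0 with cyclic loess or at 3-fold, 40 without scaling, 1 with the mean and 6 at 1.5-fold.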
